A study of Homo sapiens with 6 samples.

Results

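The tumour suppressor p53 is a transcription factor that switches on genes for cell cycle arrest, DNA repair, metabolism and its own control. The 30 genes described here are listed as such targets outside the apoptosis families. They were taken from a fixed list of gene names, chosen with earlier results of these data known. Shares of this list given below are therefore only descriptive. All 30 were found among the 58735 genes of the count table. RNA of ES2 cells, a human ovarian cancer line labelled as high-grade serous carcinoma, was sequenced in 6 libraries. The tested cells were transfected with siRNAs against UAP1 (labelled UAP1 knockdown, siUAP1, 3 libraries), and the control cells with a control siRNA (labelled WT, 3 libraries). Both were grown in DMEM with serum and antibiotics, transfected with the same lipid reagent, given fresh medium after 6 hours and lysed 48 hours after transfection. UAP1 makes UDP-GlcNAc, the sugar donor of N-glycans and O-GlcNAc. The labels list a pair of UAP1 siRNAs and do not say whether they were pooled or which library received which. One cell line was used throughout.

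In cells with working p53, damage or stress stabilises the protein. It binds its DNA elements as a tetramer and raises its targets, among them MDM2, the ligase that marks p53 for destruction and so closes a negative feedback loop. CDKN1A encodes p21, the inhibitor of cyclin-dependent kinases that carries much of the arrest. Many of the targets also answer to other transcription factors, including the p53 relatives p63 and p73.

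Libraries held 21267240 to 25972582 counts, and 15768 genes had enough counts to be tested. UAP1 averaged 23.4 ± 1.7 CPM (counts scaled to library size) in siUAP1 and 382 ± 54.1 CPM in control libraries (SD, n = 3 each), a log2 fold change of -4.03 (SE 0.136, edgeR adjusted p = 6.12e-06). Libraries that carry the same replicate number deviated together, so values are given from a fit that blocks on this number (the fit with pairs) as well as from the groups alone. Of 12 ovarian carcinoma markers, 4 had 0 counts in every library and 9 averaged under 1 FPKM (counts scaled by gene length), among them PAX8, WT1 and MUC16. KRT18 was the highest, and the list summed to 278 to 350 FPKM in siUAP1 and 202 to 225 FPKM in control libraries. Of 6 leukocyte markers 2 were at 0 throughout and the list summed to 0.139 to 0.56 FPKM in siUAP1 and 0.167 to 0.338 FPKM in control libraries, with CD14 the highest. Of 5 endothelial markers, all had some counts and 4 averaged under 1 FPKM. CDH5 was the highest (23.9 FPKM on average), and the sums were 21.9 to 28.4 FPKM in siUAP1 and 21.7 to 28 FPKM in control libraries. Of 5 fibroblast markers DCN was at 0 throughout and 2 averaged under 1 FPKM. COL1A1 was the highest (143 FPKM on average), and the sums were 139 to 244 FPKM in siUAP1 and 79.7 to 150 FPKM in control libraries. KRT7, KRT8 and KRT18 of the ovarian list and COL1A1 and PDGFRB of the fibroblast list rose in the fit with pairs, and their part in the results below was not tested.

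The p53 element consists of a pair of 10-base half-sites, each made of 3 purines, C, A or T, A or T, G and 3 pyrimidines, with up to 13 bases between them. RefSeq windows on GRCh38.p14, from 250 bases before to 50 bases after an annotated start, were at hand for 25 of the 30 genes (37 windows, with none for TP53INP1, RRM2B, PHLDA3, GADD45A and FBXO22). A half-site reads the same on both strands, so that one search covers both. With C and G fixed and at most 2 other mismatches over both half-sites, an element was found for MDM2, DDB2, AEN and FDXR. It stood in 5 of the 37 windows of these targets (13.5%), some of which overlap, and in 1030 of 35116 windows of all genes (2.93%). The 5 windows belong to these 4 genes. As the members were listed as p53 targets, this share and those of windows below are descriptive and not a test. These elements are shown because p53 is known to act through elements of this pattern. They are matches to the pattern only, and binding of p53 to them in these cells was not tested. Each stretch has 30 bases, 5′ to 3′ on the gene's strand, with the half-sites in capitals.
MDM2: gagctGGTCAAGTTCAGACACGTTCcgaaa
DDB2: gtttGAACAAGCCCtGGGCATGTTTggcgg
AEN: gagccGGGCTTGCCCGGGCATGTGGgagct
FDXR: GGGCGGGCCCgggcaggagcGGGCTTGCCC

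The DDB2 element had 0 mismatches and 1 base between its half-sites, at positions 6 to 26 from an annotated start inside the gene (chr11:47214975-47215004, plus strand, for the stretch shown), in an exon of 2 of 4 GENCODE transcripts there. That of MDM2 had 2 mismatches and no spacer, at positions -94 to -75 from the gene's internal start (chr12:68808918-68808947, plus strand), in an intron of the 7 transcripts that span it. In AEN it lay at -34 to -15 with 2 mismatches and no spacer (chr15:88621301-88621330, plus strand), and in FDXR at -31 to -2 with 2 mismatches and 10 bases between the half-sites (chr17:74872996-74873025, minus strand), in both within an annotated exon. With a spacer of at most 1 base, MDM2, DDB2 and AEN were left (4 of the 37 windows, or 10.8%, and 0.533% of all windows). The 150 bases before the internal start of MDM2 (chr12:68808867-68809016, plus strand) show this element in its promoter context. Capitals mark only what met the search. Half-sites without the fixed C and G were not counted, so the lower-case bases may hold a further element of looser match.
MDM2 promoter: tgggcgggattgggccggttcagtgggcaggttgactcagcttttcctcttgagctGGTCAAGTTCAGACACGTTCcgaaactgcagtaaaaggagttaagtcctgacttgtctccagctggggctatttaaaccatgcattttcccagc

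A half-site without mismatch stood in 6 of the 37 windows (16.2%), those of 6 genes, and in 6.63% of all windows. DDB2, AEN and FDXR carry theirs within the elements above. Those of PLK2 (chr5:58460199-58460228), RPS27L (chr15:63157517-63157546) and SESN1 (chr6:109009018-109009047), all on the minus strand, are shown because the first and second of these genes are among the members that differ below, the half-site again in capitals.
PLK2: tggcgggacaAGACTTGCTTcccggccacg
RPS27L: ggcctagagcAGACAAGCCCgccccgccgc
SESN1: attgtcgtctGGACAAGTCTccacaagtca

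**Figure D1:**
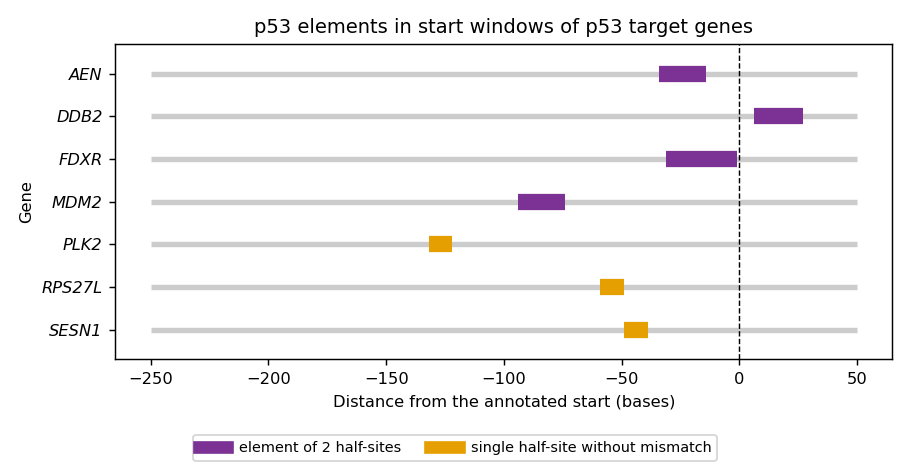
Positions of p53 elements (purple, a pair of half-sites with at most 2 mismatches) and of single half-sites without mismatch (orange) in the windows of 7 genes, with the distance from the annotated start in bases. Grey bars span the searched window, the dashed line is the start, and the 4 elements lie between -94 and 26.

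Most of these genes were present at low levels in ES2 cells. Per gene length, PLK2 was the most abundant, at 107 ± 14.6 FPKM in siUAP1 and 83.9 ± 7.4 FPKM in control libraries (SD, n = 3 each), followed by CCNG1 (64.7 ± 1.93 FPKM in siUAP1 and 61.7 ± 1.38 FPKM in control) and GADD45A (37.2 ± 2.5 FPKM in siUAP1 and 35.7 ± 1.7 FPKM in control). The ranges of these 3 did not touch each other. TRIAP1 came next (11.8 ± 3.11 FPKM in siUAP1 and 12.4 ± 0.299 FPKM in control), and its range met that of AEN and RRM2B, which in turn met. Among the 27 tested genes, and over the 6 libraries, the ranges of neighbours in this order were apart at 4 further places, below GADD45A, POLH, SUSD6 and ACER2; elsewhere neighbours could not be told apart. The classical targets CDKN1A (3.24 ± 0.265 FPKM in siUAP1 and 2.8 ± 0.204 FPKM in control) and MDM2 (2.66 ± 0.237 FPKM in siUAP1 and 3.08 ± 0.0327 FPKM in control) lay in the lower part of this order. This order depends on the annotated gene lengths and is not that of the CPM. In control libraries MDM2 averaged 41.2 CPM, above TRIAP1 at 18.1 CPM. RPS27L, at 63.8 CPM, came close to GADD45A at 74.4 CPM, while CDKN1A was low by CPM too (8.62). In control libraries 25 of the 30 averaged at least 1 FPKM.

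TIGAR was the lowest member that could be tested, at 0.189 ± 0.0388 FPKM in siUAP1 and 0.189 ± 0.0591 FPKM in control libraries. BTG2, an antiproliferative cofactor and a textbook p53 target, had 5, 6 and 5 counts in siUAP1 and 1, 4 and 7 counts in control libraries. SPATA18, of mitochondrial quality control, had 1 count in siUAP1 replicate 2 and none in the other libraries, and INPP5D, a phosphatase of blood cells, had 2 counts in control replicate 2 and none elsewhere. These 3 genes were too low to be tested at this depth. All of the other 27 passed the filter on low counts in every library, and none through 1 group alone.

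**Figure D2:**
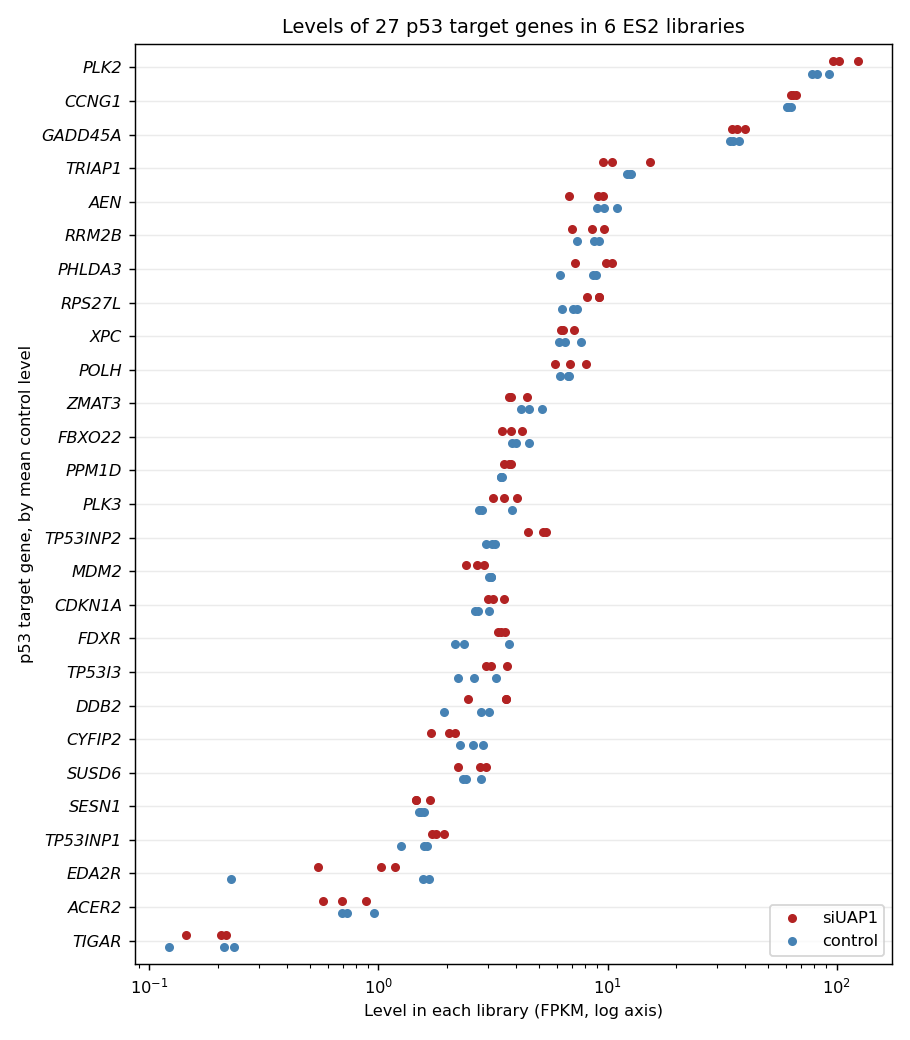
Level of each of the 27 tested p53 target genes in each library (FPKM, log axis), siUAP1 in red above control in blue, ordered by the control mean. PLK2, CCNG1 and GADD45A stand above the others, and for most genes the red and blue points overlap.

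In siUAP1 libraries the group did not move as one. With pairs, 5 of the 27 tested genes rose (TP53INP2, RPS27L, PLK2, DDB2 and PHLDA3) and 4 fell (CYFIP2, AEN, MDM2 and ZMAT3), while 18 were not called (edgeR, Benjamini-Hochberg over all genes). The 9 called are 33.3% of those tested, beside 16.2% of all tested genes in this fit, of which 9.07% rose and 7.14% fell. The median log2 fold change was 0.07 over the 27, against -0.00295 over all tested genes, and the median size was 0.197 against 0.134. TP53INP2 had the largest difference, 1.62-fold, and the next in size were CYFIP2, 23.5% lower, and PLK2, 1.28-fold higher. With pair 1 left out 5 of the 27 were called (18.5%, beside 13.9% of all tested genes), with pair 2 left out 7 (25.9%, beside 12.6%) and with pair 3 left out 4 (14.8%, beside 7.42%). DESeq2 with pairs called 3 of the 25 it gave an adjusted p (12%, beside 11.6% of all such genes), a share near the background. Rose and fell are used below for calls of the fit with pairs. RNA from a culture cannot tell fewer cells with a transcript from less of it per cell.

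The planned main fit was the one without pairs, and the fit with pairs was an alternative to it. Without pairs, 0 of the 27 were called by edgeR, beside 0.108% of all tested genes (0.0317% rose and 0.0761% fell). At an unadjusted p under 0.05 there were 4 (TP53INP2, RPS27L, PLK2 and CYFIP2), beside 7.13% of all genes. DESeq2 without pairs called TP53INP2 alone, beside 1.4% of all genes with an adjusted p, and limma on FPKM none. The CPM of the groups did not overlap in 8 of the 27 (29.6%, beside 12.4% of all tested genes): 6 were higher in siUAP1 (TP53INP2, RPS27L, PLK2, TP53INP1, PPM1D and CCNG1, beside 6.74% of all tested genes) and 2 lower (CYFIP2 and MDM2, beside 5.71%). In 18 of the 27, the highest control library stood further above the lowest, as a ratio, than the groups stood apart.

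**Figure D3:**
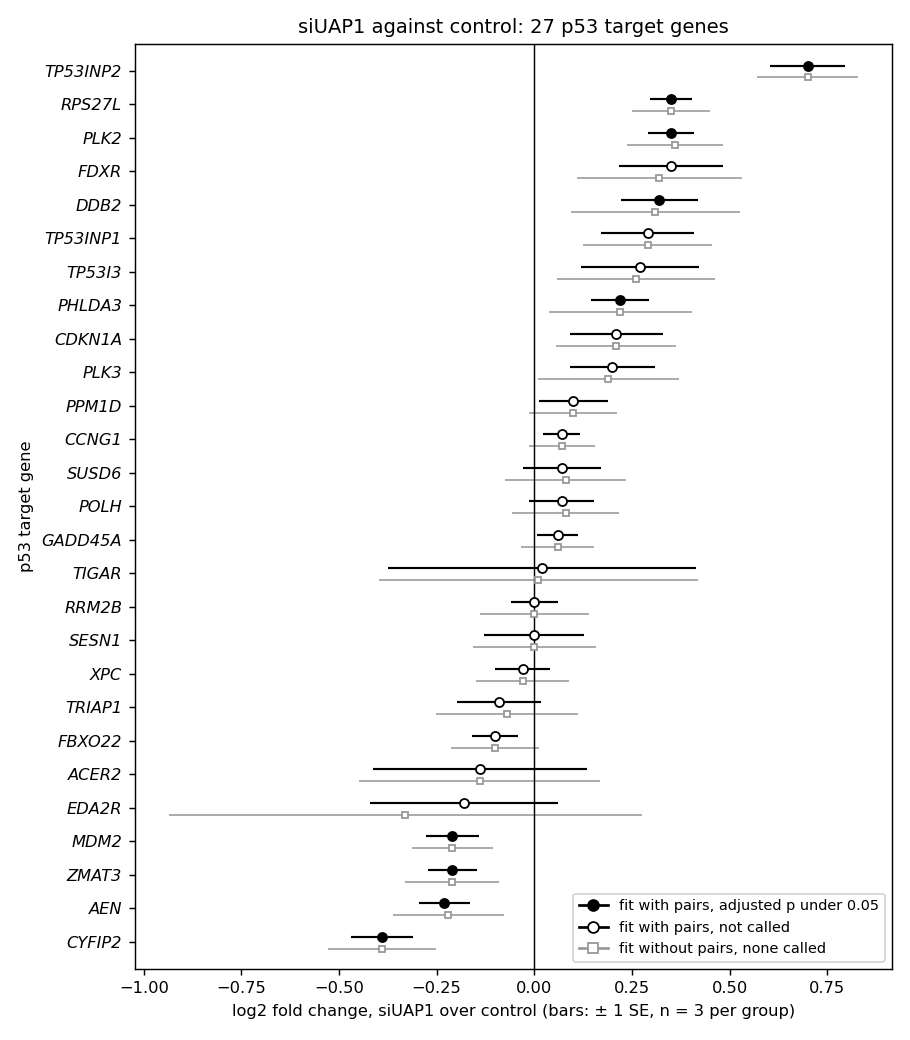
Log2 fold change of siUAP1 over control for the 27 tested genes, from the fit with pairs (circles, filled where adjusted p was under 0.05) and without pairs (grey squares), with bars of 1 SE. Values run from -0.39 for CYFIP2 to 0.70 for TP53INP2, and the estimates of the fits lie close together except for EDA2R, while the bars without pairs are wider.

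Among the genes of cell cycle arrest, PLK2, a polo-like kinase active in G1 and in centriole duplication, rose. It had 598, 491 and 462 CPM in siUAP1 replicates 1 to 3, against 392, 445 and 373 CPM in control replicates 1 to 3. Every siUAP1 library lay above every control library, and replicate 1 showed the widest gap (log2 differences of 0.61, 0.14 and 0.31 in pairs 1 to 3). The log2 fold change was 0.35 (SE 0.0599, adjusted p = 0.000134), and DESeq2 with pairs did not call it (adjusted p = 0.0985, over a range of 3.35e-13 to 0.0985 in 7 fits with pairs). Without pair 1 the value was 0.23 and without pair 2 it was 0.46. PLK2 lies at GRCh38 chromosome 5, 58453982 to 58460260, minus strand.

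CDKN1A (chromosome 6, 36676460 to 36687339, plus strand) was not called. It had 10.9, 9.76 and 9.26 CPM in siUAP1 libraries, against 9.31, 8.18 and 8.36 CPM in control libraries. The siUAP1 library was the higher one in all 3 pairs (0.22, 0.25 and 0.15 on the log2 scale), but the groups overlapped, and the fold change of 0.21 (SE 0.119) had adjusted p = 0.263. Its relatives in arrest were also uncalled: PLK3, a stress-responsive polo-like kinase, at 0.20 (SE 0.108), CCNG1, or cyclin G1, which recruits a phosphatase to MDM2, at 0.07 (SE 0.0471), and GADD45A, a growth arrest and DNA damage protein, at 0.06 (SE 0.052). All 5 tested arrest genes had positive fold changes, 4 of them without a call. Positive fold changes were also found for 16 of the 27 tested members and for 7772 of all 15768 tested genes.

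Of the genes that feed back on p53, RPS27L rose and MDM2 fell. RPS27L (chromosome 15, 63125872 to 63158021, minus strand), a relative of ribosomal protein S27 reported to bind MDM2, had 74.9, 84.9 and 84.3 CPM in siUAP1 libraries, against 58.3, 68.2 and 65 CPM in control libraries. The groups did not overlap and the pairs gave nearly the same log2 difference (0.36, 0.32 and 0.37). Its fold change was 0.35 (SE 0.0526, adjusted p = 2.75e-05), and it was called in all 7 fits with pairs. The gene overlaps LACTB on the opposite strand (1785.7 counts on average, against 2314.8 for LACTB) without a shared exon, and as the counting is not stated to use strand its counts are uncertain.

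MDM2 (chromosome 12, 68808176 to 68850686, plus strand) had 32.4, 38.5 and 36.1 CPM in siUAP1 libraries, against 41.5, 40.9 and 41.2 CPM in control libraries. The control libraries were nearly equal and all siUAP1 libraries lay below them, with log2 differences of -0.36, -0.09 and -0.19 in pairs 1 to 3. The fold change was -0.21 (SE 0.0685, adjusted p = 0.0367). The call ended without pair 1 (fold change -0.14, adjusted p = 0.26), without pair 3 (0.169), with DESeq2 (0.147) and without a filter (0.0507), over a range of 0.0193 to 0.26. Its exons overlap those of the carboxypeptidase M gene on the opposite strand (938.3 counts on average, against 472.0), so its counts are uncertain.

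The phosphatase gene PPM1D, whose product WIP1 removes activating phosphates from p53, had 19, 18 and 19.4 CPM in siUAP1 libraries, against 17.5, 17.7 and 17.4 CPM in control libraries. The groups did not overlap, yet the difference was small (0.10, SE 0.0889, adjusted p = 0.53). FBXO22, an F-box protein that directs the breakdown of methylated p53, was at -0.10 (SE 0.0593, adjusted p = 0.301).

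The next 5 genes were grouped for this text under DNA repair and nucleotide supply, and a role of AEN in repair is not implied. Of these, DDB2 rose and AEN fell, and XPC, POLH and RRM2B were not called. DDB2, which recognises ultraviolet lesions and whose element without mismatch lies near a start inside the gene, had 12.1, 17.8 and 17.7 CPM in siUAP1 libraries, against 9.55, 15.1 and 13.8 CPM in control libraries. Replicate 1 was low in both groups, so the groups overlapped, while each siUAP1 library exceeded its own partner (0.34, 0.24 and 0.36 on the log2 scale). The fold change was 0.32 (SE 0.0985, adjusted p = 0.0288). The call ended without pair 1, 2 or 3 (adjusted p = 0.0601, 0.0607 and 0.198) and with DESeq2 (0.139), over a range of 0.0288 to 0.198. DDB2 lies at chromosome 11, 47214465 to 47239240, plus strand.

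AEN (chromosome 15, 88621296 to 88632282, plus strand), a nuclease that p53 induces, had 41.3, 57.8 and 55.3 CPM in siUAP1 libraries, against 54.6, 58.7 and 66.7 CPM in control libraries. The gap was wide in pairs 1 and 3 (-0.40 and -0.27) and close to 0 in pair 2 (-0.02). The fold change was -0.23 (SE 0.0647, adjusted p = 0.0164), and the call ended without pair 1 (fold change -0.15, adjusted p = 0.138) or pair 3 (0.197) and with DESeq2 (0.078), over a range of 0.000375 to 0.197. XPC, which finds lesions for nucleotide excision repair, was at -0.03 (SE 0.0701), the translesion polymerase gene POLH at 0.07 (SE 0.0824) and RRM2B, a ribonucleotide reductase subunit, at 0.00 (SE 0.0609). On the opposite strand, XPC shares up to 318 bases of an exon with LSM3, and POLH only 4 with GTPBP2. Both are therefore uncertain. MDM2, DDB2 and AEN, the genes with the closely spaced elements shown above, thus include a gene that rose and a pair that fell.

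None of the 5 tested genes of redox and metabolism was called. FDXR, the mitochondrial ferredoxin reductase, had 12.9, 12.4 and 12.1 CPM in siUAP1 libraries, against 7.81, 8.65 and 13.4 CPM in control libraries. The siUAP1 libraries were alike and the control libraries were not, so that pairs 1 and 2 differed by 0.72 and 0.52 and pair 3 by -0.15. With all pairs the fold change was 0.35 (SE 0.133, adjusted p = 0.0816). Without pair 3 it was 0.62 (adjusted p = 0.0155), and without a filter adjusted p = 0.032, over a range of 0.0155 to 0.483.

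The quinone oxidoreductase gene TP53I3 was at 0.27 (SE 0.151, adjusted p = 0.26), with log2 differences of -0.07, 0.17 and 0.71 in pairs 1 to 3, and overlaps FAM228B on the opposite strand. SESN1, a sestrin that restrains mTORC1, was at 0.00 (SE 0.128). ACER2, a Golgi ceramidase, was at -0.14 (SE 0.274), and TIGAR, a fructose bisphosphatase that lowers glycolytic flux, at 0.02 (SE 0.394). The wide errors of ACER2 and TIGAR go with their low levels, under 1 FPKM on average.

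The clearest difference of all was in TP53INP2 (chromosome 20, 34704290 to 34713439, plus strand), which acts in autophagosome formation. Its 2 start windows held no p53 element and no half-site without mismatch. It had 22.4, 22.9 and 19.2 CPM in siUAP1 libraries, against 12.5, 13.4 and 13.8 CPM in control libraries. The groups lay well apart, with log2 differences of 0.84, 0.77 and 0.48 in pairs 1 to 3. The fold change was 0.70 (SE 0.096, adjusted p = 8.34e-06), and it was called in all 7 fits with pairs and, without pairs, by DESeq2 (adjusted p = 0.00125) and by edgeR with no filter (0.00945). The gene's span lies within that of NCOA6 on the opposite strand (428.2 counts on average, against 1579.0 for NCOA6) without a shared exon, so its counts are uncertain as well. Its relative TP53INP1, a stress-induced nuclear and autophagy protein, had 10.3, 11.1 and 9.85 CPM in siUAP1 libraries, against 9.03, 9.4 and 7.17 CPM in control libraries. These groups did not overlap either, but the fold change of 0.29 (SE 0.12) was not called (adjusted p = 0.105). TP53INP1 overlaps NDUFAF6 on the opposite strand (232.0 counts on average, against 351.2 for NDUFAF6) without a shared exon and is uncertain too.

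CYFIP2, a subunit of the actin-regulating WAVE complex, fell. It had 18, 22.8 and 21.6 CPM in siUAP1 libraries, against 23.9, 27.6 and 30.1 CPM in control libraries. All siUAP1 libraries lay below all control libraries, with log2 differences of -0.41, -0.28 and -0.48. The fold change was -0.39 (SE 0.0804, adjusted p = 0.00118). The call ended without pair 3 (0.0597, over a range of 0.000216 to 0.0597). The gene lies at chromosome 5, 157266079 to 157395595, plus strand, and its exons share 62 bases with ADAM19 on the opposite strand, which makes it uncertain.

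ZMAT3, a zinc finger protein that binds RNA and acts in splicing, also fell, with 43.6, 36.9 and 36.3 CPM in siUAP1 libraries, against 50.3, 41 and 44.2 CPM in control libraries. Replicate 1 was the highest in each group, the groups overlapped, and every pair was negative (-0.21, -0.15 and -0.28). The fold change was -0.21 (SE 0.0631, adjusted p = 0.0207), and the call ended without pair 3 (0.198) and with DESeq2 (0.10), over a range of 0.0203 to 0.198. PHLDA3, which blocks the membrane binding of AKT, had 31.3, 22.8 and 33.2 CPM in siUAP1 libraries, against 27.2, 19.7 and 28.1 CPM in control libraries. Replicate 2 was low in both groups, and the pairs differed by a nearly constant 0.20, 0.21 and 0.24. Its fold change was 0.22 (SE 0.0749, adjusted p = 0.0485), the weakest of the 9 calls, which ended in the other 6 fits with pairs (0.0518 to 0.251). ZMAT3 lies at chromosome 3, 179017223 to 179072279, and PHLDA3 at chromosome 1, 201464383 to 201469237, both on the minus strand.

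EDA2R, the receptor of ectodysplasin A2, varied most between libraries of 1 group. It had 3.73, 4.25 and 1.96 CPM in siUAP1 libraries, against 5.64, 6.01 and 0.819 CPM in control libraries, so that replicate 3 was low in both. The control libraries spanned 7.34-fold, against a median of 1.22-fold over the 27 tested members. The pairs disagreed in sign (-0.59, -0.49 and 1.18), and the fold change of -0.18 (SE 0.24) was not called. TRIAP1, which acts in lipid transfer inside mitochondria, was at -0.09 (SE 0.108) with pairs of both signs, and SUSD6, a membrane protein, at 0.07 (SE 0.0996).

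**Figure D4:**
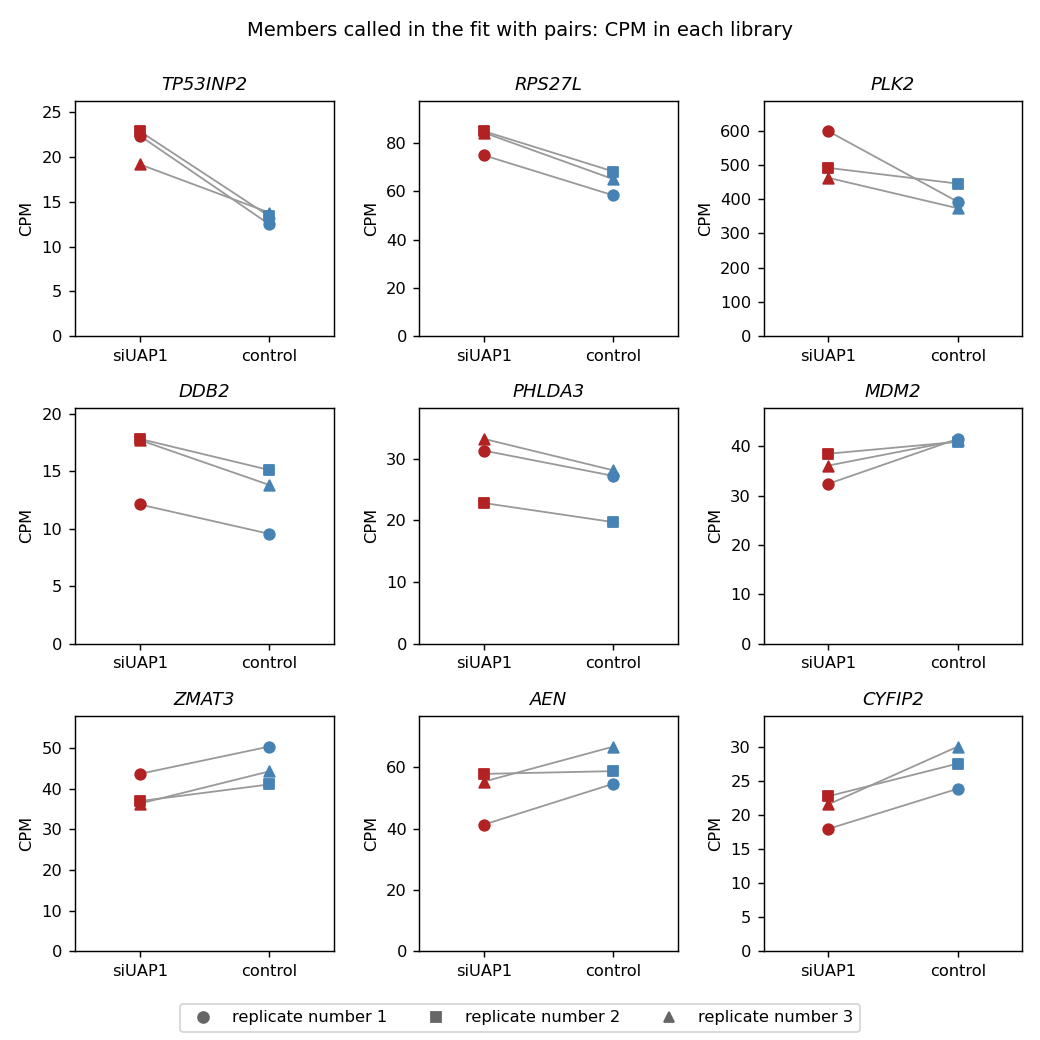
CPM of the 9 genes called in the fit with pairs, siUAP1 (red) on the left and control (blue) on the right, with libraries of the same replicate number joined by a line and marked by shape. TP53INP2, RPS27L, PLK2, MDM2 and CYFIP2 do not overlap between groups, while DDB2, PHLDA3, ZMAT3 and AEN do. DDB2, PHLDA3 and ZMAT3 shift within each pair, and AEN in pairs 1 and 3, with a log2 difference of -0.02 in pair 2.

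Of 20 p53 regulators and partners, 19 were tested, 0 rose and 3 fell with pairs (median -0.00339). The 3 are 15.8% of those tested, near the 16.2% of all tested genes. TP63, which encodes a p53 relative that can bind the same elements, had 31.7, 45.4 and 49 CPM in siUAP1 libraries, against 45.8, 51.6 and 71.5 CPM in control libraries. It was lower within each pair while the groups overlapped (-0.42, SE 0.0678, adjusted p = 7.56e-05). The others that fell were MDM4, an inhibitor of p53 (-0.26, SE 0.0656, adjusted p = 0.00593), and the acetyltransferase gene KAT5 (-0.40, SE 0.0965, adjusted p = 0.00432), which overlaps RNASEH2C on the opposite strand and is uncertain. TP73 had 1 count in siUAP1 replicate 2 and none elsewhere.

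Other targets of p53 went both ways as well. Of 16 apoptosis targets, 14 were tested, 2 rose and 3 fell (35.7%, beside 16.2% of all tested genes, median 0.000107). FAS, a death receptor, had 8.37, 12.2 and 9.07 CPM in siUAP1 libraries, against 5.74, 6.45 and 7.78 CPM in control libraries (0.56, SE 0.139), and BID, a BH3 protein, rose by 0.34 (SE 0.0674). TNFRSF10D, a decoy death receptor, fell by 0.27 and PMAIP1, a BH3 protein, by 0.18. FAS overlaps ACTA2 on the opposite strand and is uncertain.

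Of 46 other reported targets, 42 were tested, 9 rose and 3 fell (28.6%, beside 16.2% of all tested genes, median 0.0317). GDF15 (0.92, SE 0.144), a stress cytokine, SESN2 (0.53, SE 0.078), a sestrin, DRAM1 (0.35, SE 0.0564), of autophagy, and PLXNB2 (0.37, SE 0.0545), a semaphorin receptor, had the smallest p. Of 18 cell cycle genes that p21 represses through the DREAM complex, all were tested, and 0 rose and 3 fell, 16.7% and so near the share of all genes. They were FOXM1 (-0.25, SE 0.0469), CDK1 (-0.24, SE 0.05) and CDC20 (-0.21, SE 0.0458), all drivers of mitosis. All 18 had negative fold changes, beside 50.7% of all tested genes, with a median of -0.0927, and 15 were not called. FOXM1 overlaps ITFG2 on the opposite strand and is uncertain. Without pairs, none of these 4 lists held a called gene, and 8 of their 93 tested genes (8.6%) had an unadjusted p under 0.05, near the 7.13% of all tested genes.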

How the data were processed

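RNA of 6 ES2 libraries was sequenced. The authors deposited raw counts per gene for 58735 genes, and FPKM, in which the counts are divided by gene length and by library total. DESeq2 and the build GRCh38.p12 are named in the submitters' processing notes. Alignment, counting tool and strand setting were not given in the sources used here. Members were matched on gene name and all 30 were found. Libraries held 21267240 to 25972582 counts. Libraries of 1 group differed beyond counting error, with a chi-square per degree of freedom of 23.9 to 41.3.

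Groups were tested with edgeR 4.0.16 (R 4.3.3) after TMM scaling and filterByExpr (minimum count 10), using the quasi-likelihood test of siUAP1 over control, and Benjamini-Hochberg adjustment over the 15768 tested genes (threshold 0.05). CPM were computed with TMM-adjusted totals. The method was tested on simulated data. Titles give both groups the replicate numbers 1 to 3. The library names of both groups share a code within each number, and its meaning is not stated. Deviations of same-numbered libraries from their group means correlated at 0.552, 0.454 and 0.584 over tested genes, all above the limit of 0.1, and the numbers were taken to pair the libraries. The labels do not say whether replicates were separate cultures, and p-values then reflect only how these libraries vary, which may be technical. Alternatives were RLE scaling, other filters, DESeq2 1.42.0, limma 3.58.1 on log2(FPKM + 1) or log2(FPKM + 0.1), the pairs, and leaving out libraries or pairs.

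The members and lists were chosen with earlier results of these data known. The rule for naming took all members, UAP1 and MDM4, and from each other list up to 4 called genes of smallest p with pairs, or, where fewer than 2 were called, the 2 with the lowest p, plus the marker with the highest FPKM of each marker list. Outside this rule, TP73, PAX8, WT1, MUC16 and DCN are named for their absent or low counts, chosen after their values were seen. The text names some of the list genes it gave, and 1 gene it named is not reported here. Sequences are from RefSeq windows on GRCh38.p14, of 250 bases before to 50 bases after a start. The deposited gene starts and ends of all 30 members are those of GENCODE release 29.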

Additional observations from a re-analysis of the deposited data

How the results depend on the processing

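The fall of UAP1 kept its direction and its call under all 19 alternatives, with log2 fold changes of -4.1 to -3.91 when a library or pair was left out. The other results depended on the pairs. The fit without pairs called 17 genes in all, 0 of the members and 0 of the other p53 pathway genes. Without a filter these counts were 273, 1 and 1, and with DESeq2 200, 1 and 2. With the replicate block they were 2556, 9 and 23, with the block and RLE scaling 2539, 8 and 23, with the block and DESeq2 1434, 3 and 15, and with the block and no filter 2469, 8 and 21. Limma on FPKM called 2 genes with a pseudocount of 1, 3 with 0.1 and 1 with no filter. Leaving out pair 1, 2 or 3 gave 2204, 1987 and 1195 genes, 5, 7 and 4 members, and 21, 18 and 14 pathway genes, and leaving out 1 library without pairs gave 1 to 3 genes and 0 members and pathway genes. DESeq2 left 1531 genes without an adjusted p, and 3363 with the block, and these are not counted.

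Of 507 member values under the alternatives, 425 kept direction and side of the threshold, 46 became called and 36 changed sign, in 9 members, none past the threshold. The sign of RRM2B changed most often, with values of 0 to -0.01 under other scalings, tools, FPKM and the block, and SESN1 was at 0 with no filter. Leaving out 1 library gave -0.11 to 0.12 for RRM2B, -0.07 to 0.03 for SESN1, -0.82 to 0.05 for EDA2R, -0.3 to 0.06 for TRIAP1, -0.04 to 0.18 for POLH, -0.01 to 0.19 for SUSD6, -0.23 to 0.18 for TIGAR, -0.1 to 0.06 for XPC and -0.32 to 0.02 for ACER2. The sign also changed with the block and a pair left out: without pair 1 for SESN1 (0.01), EDA2R (0.09) and TRIAP1 (0.05), without pair 2 for SESN1 (0.03), EDA2R (0.06), POLH (-0.02) and SUSD6 (-0.01), and without pair 3 for RRM2B (-0.05) and TIGAR (-0.07). Of the 9 members called with pairs, TP53INP2 and RPS27L were called in all 7 fits with pairs, PLK2 and CYFIP2 in 6, ZMAT3 in 5, AEN in 4, DDB2 and MDM2 in 3 and PHLDA3 in 1. The causes were not tested. Genes counted a few times per library limit what can be seen: BTG2, SPATA18 and INPP5D could not be tested.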
